A study of Mus musculus with 36 samples.

Results

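The microRNAs (miRNAs) described here were mmu-miR-7a-5p, mmu-miR-7b-5p, mmu-miR-9-5p, mmu-miR-9-3p and mmu-miR-124-3p, which were chosen by name because neurons and neuroendocrine cells are rich in them. They were 5 of 1963 miRNAs listed in the small RNA tables of a mouse prostate study, and all 5 were among the 514 with a mean of at least 1 CPM that entered the tests. CPM is the reads of a miRNA per 1000000 miRNA reads of the library. Small RNA was sequenced from the ventral and lateral lobes of male mice, 3 mice per group and 1 library per mouse, in 12 groups. The question put to these miRNAs was whether their levels change with the TRAMP tumour transgene, whose prostate tumours can take on a neuroendocrine character.

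The WT groups carried the unmodified Elac2 gene. The KO groups were homozygous for a deletion of Elac2 made by Pb-Cre, a recombinase driven by the probasin promoter, so that the gene is lost mainly in prostate epithelium and not in stroma, nerve or muscle. The A537T groups were homozygous throughout the body for a threonine in place of an alanine of ELAC2, the ribonuclease that trims the 3′ end of precursor tRNAs. The WT-TRAMP, KO-TRAMP and A537T-TRAMP groups carried 1 copy of the TRAMP transgene, which drives the SV40 T antigens, again from a probasin promoter, and the WT, KO and A537T groups carried none. Each of these 6 groups was studied at 10 and at 30 weeks of age, and all mice were on the background labelled C56NL/6N.

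miRNAs guide Argonaute proteins to messenger RNAs through base pairing of the seed near their 5′ end, and a mature miRNA can come from either arm of its hairpin precursor. miR-7 is abundant in neurons, the pituitary and pancreatic islets, miR-9 in neural progenitors and neurons, and miR-124 in nearly all neurons, where it represses genes of non-neuronal cells. Genes of miR-9 and miR-124 are held silent outside the nervous system by the repressor REST, and miR-9 in turn represses REST.

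The sequences below show what the members share and how they differ. Each is the mature RNA from RefSeq (GRCm38.p6), 5′ to 3′, with the seed (bases 2 to 8) in capitals, and 4 of the 5 members were matched.
mmu-miR-7a-5p: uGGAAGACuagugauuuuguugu
mmu-miR-7b-5p: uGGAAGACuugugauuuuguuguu
mmu-miR-9-5p: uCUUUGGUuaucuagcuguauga
mmu-miR-9-3p: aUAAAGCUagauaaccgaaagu
mmu-miR-7a-5p and mmu-miR-7b-5p had the same seed, which no other of the 1679 mature names in the table carried. They differed by the substitution A10U, counted from 1 at the 5′ end of mmu-miR-7a-5p, and mmu-miR-7b-5p was 1 base longer at its 3′ end (24 against 23 bases). Reads of so similar a pair can be shared between them during counting, so the split between miR-7a and miR-7b is less certain than their sum. The seeds of mmu-miR-9-5p and mmu-miR-9-3p were each carried by 1 mature name.

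The 5p member of the miR-7a pair has 2 genes with the same mature sequence. Mir7-1 (chr13:58392779-58392886, minus strand) lay in an intron of Hnrnpk, a gene for a widely expressed RNA-binding protein, on the same strand. Mir7-2 (chr7:78888277-78888373, plus strand) and Mir7b (chr17:56242988-56243098, plus strand) overlapped no other annotated gene. The arms opposite to the miR-7 members do tell the genes apart, and their sequences are shown because they are used for that below, again with bases 2 to 8 in capitals.
mmu-miR-7a-1-3p: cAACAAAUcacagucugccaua
mmu-miR-7a-2-3p: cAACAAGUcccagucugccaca
mmu-miR-7b-3p: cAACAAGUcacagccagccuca
Both miR-9 arms are cut from the same hairpin, and 3 genes carry identical copies of both: Mir9-1 (chr3:88215598-88215686) in an intron of the long non-coding RNA Gm3764, Mir9-2 (chr13:83738814-83738885) in an exon of the non-coding RNA C130071C03Rik, and Mir9-3 (chr7:79505264-79505353) in an intron of Mir9-3hg. The shortest of these hairpins, Mir9-2, is printed to show both arms, in capitals, on 1 precursor of 72 bases.
Mir9-2 hairpin: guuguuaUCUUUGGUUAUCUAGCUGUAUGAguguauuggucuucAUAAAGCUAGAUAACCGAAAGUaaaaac

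The columns of the tables carry library numbers, so the group of each library rests on the table or tables that hold its column, and libraries are named here by those numbers. Library 35 (A537T, 10 weeks) held 655455 reads and the other 35 libraries 4544257 to 21870210. Epithelial miRNAs of the miR-200 family and miR-205 made up 3.81% to 10.0% of reads in every library. At 10 weeks their share was 3.81% to 6.67% without TRAMP and 6.00% to 9.24% with it. Skeletal muscle miRNAs, led by miR-1a and miR-133a, made up 9.71% to 30.6% of reads in the 3 WT libraries of 10 weeks, 0.734% to 13.7% in the KO and A537T libraries of that age without TRAMP, and 0.218% to 3.09% in the TRAMP libraries of that age. Libraries 17 and 18 stood apart from library 16 of the same KO-TRAMP group of 30 weeks, with smooth muscle miRNAs (miR-143 and miR-145a) at 33.6% and 23.96% of reads against 5.51%. Results that rest on these libraries are given with and without them. In whole lobes, a lower level can mean fewer cells of a type or less of the miRNA in each cell, and these cannot be told apart. The limma p-values set a difference against 1 spread per miRNA, that between libraries of a group, shared over all 12 groups. They do not reflect the spread of the compared groups alone.

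Together the 5 members accounted for 0.184% to 0.856% of a library, most of it mmu-miR-7a-5p. Its mean over the 36 libraries was 3769 CPM, which ranked 35 among all miRNAs, and its range was 1590 to 7183 CPM. mmu-miR-9-5p followed with a mean of 444 CPM (rank 89), mmu-miR-7b-5p with 209 CPM (rank 122), mmu-miR-9-3p with 19.6 CPM (rank 249) and mmu-miR-124-3p with 6.12 CPM (rank 350). The neural members were thus measured at very different depths, from 91456 reads of mmu-miR-7a-5p in a library down to 1 read of mmu-miR-124-3p.

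**Figure D1:**
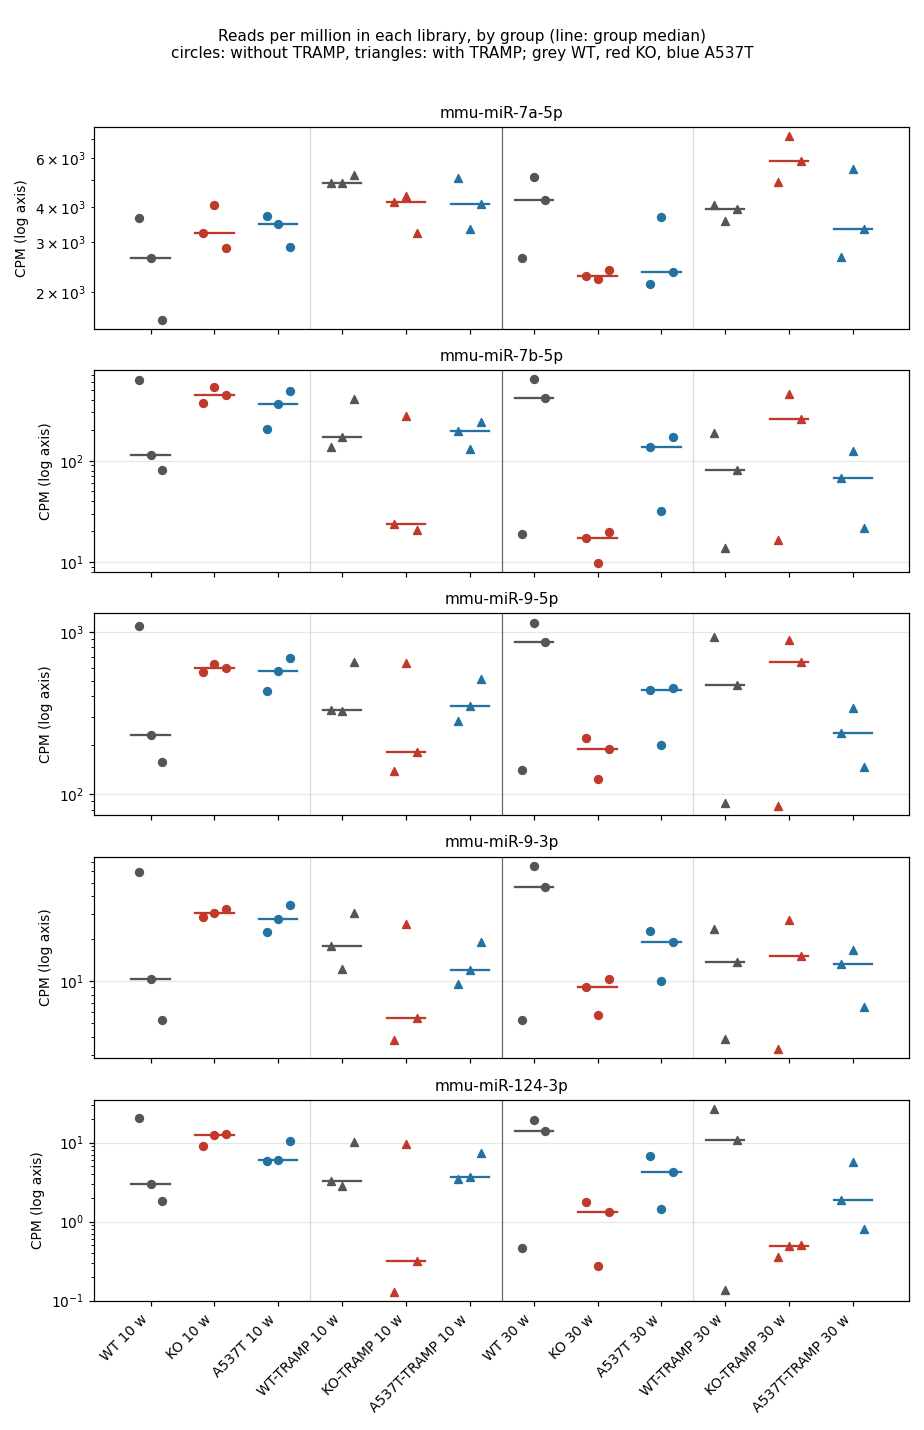
CPM of each of the 5 miRNAs in every library, on a log axis, with 3 points for the 3 libraries of each of the 12 groups and a bar at the group median. The points of mmu-miR-7a-5p lie within 1590 to 7183 CPM, whereas those of mmu-miR-124-3p run from 0.128 to 26.8 CPM and spread widely inside single groups.

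The members differed in how much the libraries of 1 group spread. mmu-miR-7a-5p had a within-group SD of 0.34 on the log2(CPM + 1) scale, close to the median of 0.39 over all miRNAs tested. The within-group SD was 1.56 for mmu-miR-7b-5p, 1.26 for mmu-miR-124-3p, 1.09 for mmu-miR-9-5p and 1.04 for mmu-miR-9-3p, larger than in 99.0%, 98.1%, 97.1% and 96.1% of the miRNAs tested. In the WT group of 30 weeks, for example, mmu-miR-9-5p was at 140, 1139 and 861 CPM in libraries 19, 20 and 21, and mmu-miR-7b-5p at 18.7, 636 and 418 CPM. Library 19 was low for both, and the other two were high for both. Differences between groups made up 64.8% of the variance of mmu-miR-7a-5p, 50.3% of mmu-miR-7b-5p, 42.3% of mmu-miR-124-3p, 31.96% of mmu-miR-9-3p and 24.3% of mmu-miR-9-5p, against a median of 63.9% over all miRNAs tested.

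**Figure D2:**
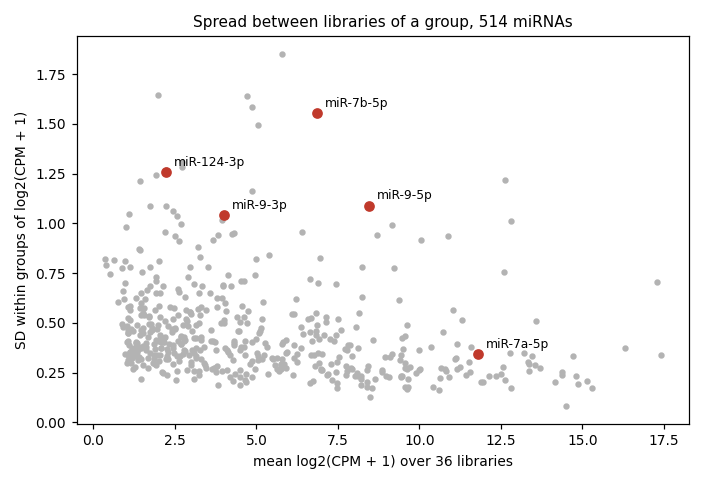
Within-group SD on the log2(CPM + 1) scale against mean level for the 514 miRNAs tested, with the 5 members marked. mmu-miR-7a-5p sits near the middle of the cloud at 0.34, and the other members lie along its upper edge at 1.04 to 1.56.

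The 4 variable members rose and fell together from mouse to mouse. The same library was the highest of its group for mmu-miR-7b-5p, mmu-miR-9-5p, mmu-miR-9-3p and mmu-miR-124-3p in 8 of 12 groups, and the same library was the lowest for all of them in 9 of 12. The deviations from the group means correlated at r = 0.97 between mmu-miR-7b-5p and mmu-miR-9-5p, 0.97 between the miR-9 arms, and 0.85 to 0.89 between mmu-miR-124-3p and the other 3, over 36 libraries that share their library totals. mmu-miR-7a-5p followed them less closely, at 0.45 to 0.54. Correlations with the summed smooth muscle miRNAs were 0.77 for mmu-miR-9-5p, 0.75 for mmu-miR-9-3p, 0.68 for mmu-miR-7b-5p, 0.51 for mmu-miR-124-3p and 0.15 for mmu-miR-7a-5p, and with the epithelial miRNAs they were -0.57, -0.54, -0.51, -0.45 and 0.18 in that order. Total reads per library correlated at no more than 0.13 in size with any member in this way. Without taking out the group means, Spearman's rho of mmu-miR-7a-5p with total reads was -0.51, and the TRAMP libraries of 10 weeks held 4544257 to 13014486 reads against 12422946 to 18574473 in those without TRAMP other than library 35. The part of tissue makeup in these levels was not tested.

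By group medians, mmu-miR-9-5p, mmu-miR-9-3p and mmu-miR-124-3p were highest in WT mice of 30 weeks, at 861, 46.7 and 14.2 CPM, and lowest in KO-TRAMP mice of 10 weeks, at 182, 5.47 and 0.313 CPM. mmu-miR-7a-5p was highest in KO-TRAMP mice of 30 weeks at 5855 CPM and lowest in KO mice of 30 weeks at 2280 CPM. mmu-miR-7b-5p was highest in KO mice of 10 weeks at 449 CPM and, like mmu-miR-7a-5p, lowest in KO mice of 30 weeks, at 17.1 CPM. Groups next to each other in the order had overlapping ranges in 11 of 11 neighbouring pairs for each member, except mmu-miR-7b-5p with 10 of 11. Neighbours in such an order tend to overlap, so this says little about groups further apart. The highest and lowest groups did not overlap for mmu-miR-7a-5p and mmu-miR-7b-5p, and they overlapped for the other members.

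The first comparison asked whether the members differ with the TRAMP transgene when the 3 lines are averaged, 9 libraries against 9 at each age. mmu-miR-7a-5p rose at both ages and was the only member called at either. At 10 weeks it was at 1590 to 4077 CPM without TRAMP and 3251 to 5206 CPM with it, and at 30 weeks at 2125 to 5124 CPM without and 2654 to 7183 CPM with TRAMP. The ranges overlapped at both ages. The rise was 0.51 ± 0.16 (log2 of CPM + 1, SE, limma adjusted p = 0.00621) at 10 weeks and 0.61 ± 0.16 (limma adjusted p = 0.00235) at 30 weeks, which is 1.42-fold and 1.53-fold. Among all miRNAs tested, limma called 65.4% at 10 weeks and 45.1% at 30 weeks, so 1 call among 5 members was no more frequent than calls in general. The median difference of all miRNAs tested was -0.28 at 10 weeks and 0.07 at 30 weeks.

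The rise of mmu-miR-7a-5p at 10 weeks was smaller without the WT libraries and with another library total. Without the WT libraries the difference was 0.26 ± 0.19 (limma adjusted p = 0.238), and with skeletal muscle miRNAs taken out of every library total it was 0.36 ± 0.15 (limma adjusted p = 0.0388). Leaving out the WT libraries removes a whole line, and the part of skeletal muscle in the rise was not tested. Epithelial miRNAs also differed with TRAMP over the 3 lines at 10 weeks. Of the 6 listed, limma called 5 as rises and 1 as a fall, beside 65.4% of all miRNAs called. Their part in the rise was not tested either. At 30 weeks, where skeletal muscle miRNAs were below 1% of reads in every library, the rise without libraries 17 and 18 was 0.52 ± 0.18 (limma adjusted p = 0.0242).

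The other 4 members were not called with TRAMP at either age. At 10 weeks their differences were -1.23 ± 0.68 for mmu-miR-7b-5p (adjusted p = 0.115), -0.52 ± 0.48 for mmu-miR-9-5p (adjusted p = 0.346), -0.84 ± 0.46 for mmu-miR-9-3p (adjusted p = 0.112) and -1.003 ± 0.555 for mmu-miR-124-3p (adjusted p = 0.113), by limma. Each of these was below 0. At 30 weeks limma gave 0.28 ± 0.68 for mmu-miR-7b-5p, -0.04 ± 0.48 for mmu-miR-9-5p, -0.41 ± 0.46 for mmu-miR-9-3p and -0.35 ± 0.56 for mmu-miR-124-3p, with adjusted p from 0.505 to 0.956. With SEs of 0.46 to 0.68, a difference as large as that of mmu-miR-7a-5p was not detectable for them. Without the WT libraries at 10 weeks, the limma differences were -1.97 ± 0.84 for mmu-miR-7b-5p (adjusted p = 0.0449) and -1.39 ± 0.56 for mmu-miR-9-3p (adjusted p = 0.0361), so that both passed the threshold as falls. Of all miRNAs tested, limma called 58.2% in that comparison. Without library 8 alone, the KO-TRAMP library that was high in all 3, limma called mmu-miR-7b-5p (-1.63), mmu-miR-9-3p (-1.08) and mmu-miR-124-3p (-1.35). Leaving out a TRAMP library with such high values makes these falls larger. With 1 library left out, limma called 309 to 350 of all miRNAs, against 336 of 514 with every library in. Smooth muscle miRNAs fell in the same comparison, both of the 2 listed being called over the 3 lines, from 6.62% to 38.9% of reads without TRAMP to 7.17% to 22.2% with it, and their part in these falls was not tested. The difference between the TRAMP differences of 30 and 10 weeks was not called for any member, the largest being 1.51 ± 0.97 for mmu-miR-7b-5p (limma adjusted p = 0.222), with 37.2% of all miRNAs called.

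**Figure D3:**
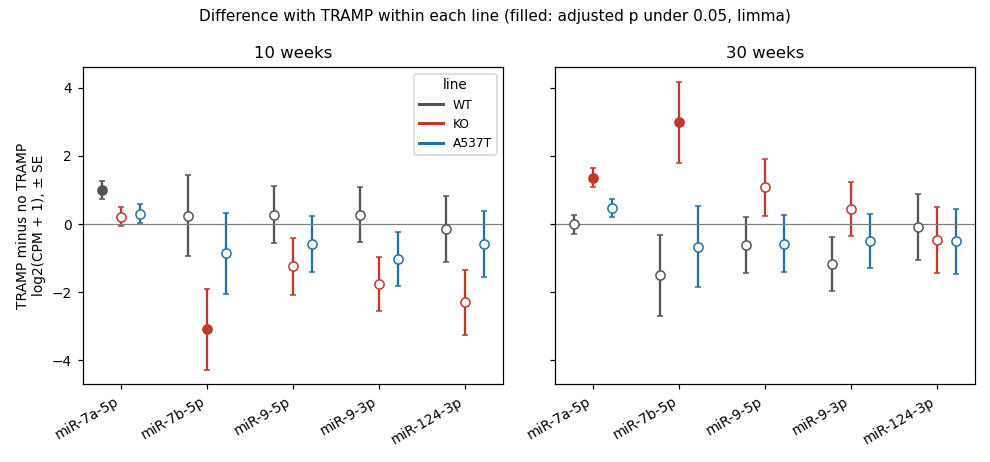
Log2(CPM + 1) difference between TRAMP and no TRAMP for each member within WT, KO and A537T at 10 weeks (left) and 30 weeks (right), with bars of 1 SE and filled points where the limma adjusted p is under 0.05. In KO mice mmu-miR-7b-5p lies at -3.09 at 10 weeks and at 2.99 at 30 weeks, and the points of mmu-miR-9-5p, mmu-miR-9-3p and mmu-miR-124-3p are all open.

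Within single lines, the clearest change was that of mmu-miR-7a-5p in KO mice of 30 weeks. Without TRAMP it was at 2280, 2220 and 2383 CPM in libraries 22, 23 and 24, and with TRAMP at 4925, 7183 and 5855 CPM in libraries 16, 17 and 18. The groups did not overlap. The rise was 1.37 ± 0.27 (limma adjusted p = 0.000327), where 35.8% of all miRNAs were called. Leukocyte miRNAs rose beside it, with 3 of 5 called and a summed share of 0.0483% to 0.0551% of reads without and 0.0731% to 0.170% with TRAMP, and their part was not tested. In library 16 alone, without libraries 17 and 18, the difference was 1.10 with a limma adjusted p of 0.0614, for which the single library was assumed to vary as the other groups do.

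In WT mice, mmu-miR-7a-5p rose with TRAMP at 10 weeks and was not called at 30 weeks. At 10 weeks it was at 3656, 2637 and 1590 CPM in libraries 28, 29 and 30 without TRAMP and at 4886, 4882 and 5206 CPM in libraries 1, 2 and 3 with TRAMP, with no overlap. The rise was 1.01 ± 0.27 (limma adjusted p = 0.00471), with 34% of all miRNAs called. The skeletal muscle share of the 3 libraries without TRAMP was 9.71%, 19.01% and 30.6%, and its part in the rise was not tested. Over all 36 libraries the deviations of mmu-miR-7a-5p from the group means correlated with that share at -0.098. Such deviations hold no difference between groups, so this value does not bear on the rise itself. Over 11 other settings the rise ran from 0.69 to 1.01 and was called in each. Leaving out library 30 gave 0.68 with an adjusted p of 0.0600. At 30 weeks its levels were 2647, 5124 and 4258 CPM without and 4070, 3573 and 3943 CPM with TRAMP, a difference of -0.00 ± 0.27 (limma adjusted p = 0.995), with 30.2% of all miRNAs called.

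In A537T mice, limma called mmu-miR-7a-5p with TRAMP at neither age. It was at 3726, 3477 and 2895 CPM without and 5102, 3347 and 4130 CPM with TRAMP at 10 weeks, and at 2125, 3711 and 2345 CPM without and 2654, 5490 and 3353 CPM with TRAMP at 30 weeks. The limma differences were 0.30 ± 0.27 and 0.47 ± 0.27 (adjusted p = 0.408 and 0.326), where 35% and 10.9% of all miRNAs were called. At 10 weeks DESeq2 gave 0.56 (adjusted p = 0.0397), a rise past the threshold, and edgeR 0.47 (adjusted p = 0.111). In KO mice of 10 weeks, with levels of 3232, 4077 and 2869 CPM without and 4197, 4382 and 3251 CPM with TRAMP, the limma difference was 0.22 ± 0.27 (adjusted p = 0.513), with 42.8% of all miRNAs called, and DESeq2 gave 0.59 (adjusted p = 0.0252). The ranges overlapped in all of these comparisons.

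The TRAMP difference of mmu-miR-7a-5p at 30 weeks was larger in KO than in WT mice. The difference between the differences was 1.37 ± 0.39 (limma adjusted p = 0.0286), with 7.98% of all miRNAs called. Without libraries 17 and 18 it was 1.11 (adjusted p = 0.357), and it was not called with any 1 of libraries 11, 17, 18, 20, 21, 22 and 24 left out (1.17 to 1.40). At 10 weeks the same contrast was -0.79 ± 0.39 (adjusted p = 0.337), with 0.389% of all miRNAs called, and for A537T against WT limma called no member at either age, with 0% of all miRNAs called at 10 weeks and 0% at 30 weeks.

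mmu-miR-7b-5p, which shares the seed of miR-7a, differed with TRAMP in opposite directions at the 2 ages in KO mice, with calls that rest on single libraries and settings. At 10 weeks it was at 375, 531 and 449 CPM without TRAMP and at 23.5, 278 and 20.48 CPM with TRAMP, with library 8 between the groups. The fall was -3.09 ± 1.18 (limma adjusted p = 0.0377), and edgeR gave -2.04 and DESeq2 -1.94, neither past the threshold. With any 1 library but library 8 left out it was not called either (-3.21 to -2.44), and without library 8 it was -4.29 (adjusted p = 0.00809). Smooth muscle miRNAs fell beside it, from 29.4% to 34.95% of reads in KO to 7.17% to 16.5% in KO-TRAMP mice, and their part was not tested. At 30 weeks it was at 17.1, 9.81 and 19.8 CPM without TRAMP and at 16.3, 452 and 258 CPM with TRAMP. Library 16 lay inside the range of the KO mice without TRAMP, and libraries 17 and 18 lay far above it. The rise was 2.99 ± 1.18 (limma adjusted p = 0.0493), and without libraries 17 and 18 the difference was 0.12 (adjusted p = 0.968). With any 1 library but library 16 left out, limma no longer called it (2.07 to 3.18), and without library 16 it was 4.42 (adjusted p = 0.00423). Of the 12 other settings tried, 9 did not call this rise, among them TMM scaling (2.74), both other pseudocounts and no filter.

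A contrast added after these values were seen compared the TRAMP difference of 30 weeks with that of 10 weeks within each line. In KO mice it was 6.08 ± 1.67 for mmu-miR-7b-5p (limma adjusted p = 0.0108) and 1.15 ± 0.39 for mmu-miR-7a-5p (limma adjusted p = 0.0264), with 31.9% of all miRNAs called. Without libraries 17 and 18 these were 3.21 (adjusted p = 0.328) and 0.88 (adjusted p = 0.285). The value of mmu-miR-7a-5p was 0.65 with TMM scaling, 0.45 with DESeq2 size factors, 0.66 with edgeR and 0.48 with DESeq2, not called in any of these. With 1 library left out, mmu-miR-7b-5p was called each time (5.16 to 7.51), and mmu-miR-7a-5p was not called without library 7, 9, 17, 18, 23 or 32 (1.01 to 1.20). In WT mice it was -1.01 ± 0.39 for mmu-miR-7a-5p (limma adjusted p = 0.0965), with 9.34% of all miRNAs called, and in A537T mice 0.16 ± 0.39 for the same miRNA, with 2.72% called.

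In mice without TRAMP, mmu-miR-7b-5p fell with age when the 3 lines were averaged. It was at 627, 113 and 80.8 CPM in WT mice of 10 weeks and at 207, 362 and 491 CPM in A537T mice of that age, beside the KO values above. At 30 weeks it was at 18.7, 636 and 418 CPM in WT and at 135, 31.5 and 173 CPM in A537T mice. The KO groups of 10 and 30 weeks lay far apart and the A537T groups did not overlap, whereas the WT groups overlapped and their median was 113 CPM at 10 weeks and 418 CPM at 30 weeks. The age difference was not tested within single lines. Over the 3 lines the fall was -2.24 ± 0.68 (limma adjusted p = 0.0116), where 33.5% of all miRNAs were called, and it was the only member that limma called with age. Skeletal muscle miRNAs also fell between these ages, from 0.734% to 30.6% of reads at 10 weeks to 0.355% to 0.820% at 30 weeks, and their part in the fall was not tested. With TRAMP the age difference of mmu-miR-7b-5p was -0.74 ± 0.68 (limma adjusted p = 0.432), with 27.4% of all miRNAs called.

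The level of mmu-miR-7b-5p against miR-9, its close companion from library to library, was not tested. The ratio of mmu-miR-7b-5p to mmu-miR-9-5p was 0.479 to 0.839 in the 9 libraries of 10 weeks without TRAMP and 0.0773 to 0.559 in the 9 of 30 weeks without TRAMP. In WT mice without TRAMP it was 0.492 to 0.579 at 10 weeks and 0.134, 0.559 and 0.485 in libraries 19, 20 and 21 of 30 weeks. With TRAMP it was 0.113 to 0.694 at 10 weeks and 0.147 to 0.506 at 30 weeks. It was lowest in the KO mice of 30 weeks, at 0.0773 to 0.104. The ratio of mmu-miR-7a-5p to mmu-miR-7b-5p ran from 5.83 to 301 over the 36 libraries, so that the level of mmu-miR-7b-5p was not a fixed share of that of its near-identical relative.

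**Figure D4:**
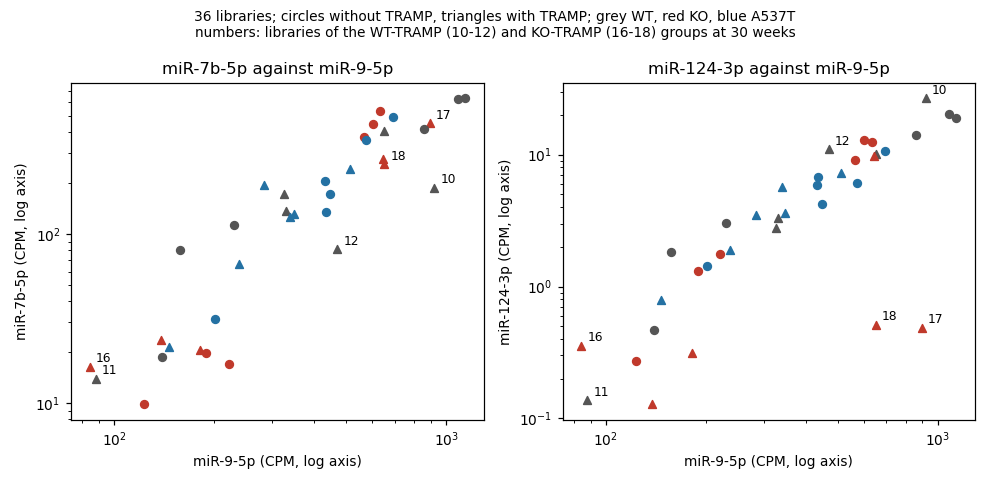
Levels of mmu-miR-7b-5p (left) and mmu-miR-124-3p (right) against mmu-miR-9-5p in the 36 libraries, in CPM on log axes. The ratio of mmu-miR-7b-5p to mmu-miR-9-5p lies between 0.0773 and 0.839. The ratio of mmu-miR-9-5p to mmu-miR-124-3p runs from 34.4 in library 10 to 1838 in library 17.

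The arms of miR-9, whose 5p arm targets REST and whose 3p arm targets its partner CoREST, varied together. Their ratio is described by group, without a test. mmu-miR-9-5p exceeded mmu-miR-9-3p by 17.3 to 43.3 times, with a median of 22.4. At 10 weeks the ratio was 18.4 to 20.7 in KO and 25.5 to 36.1 in KO-TRAMP mice, and 19.4 to 20.8 in A537T and 26.9 to 29.5 in A537T-TRAMP mice. At 30 weeks it was 18.3 to 24.3 in KO and 25.7 to 43.3 in KO-TRAMP mice. These 3 pairs of groups did not overlap, while the WT pairs and the A537T pair of 30 weeks did, and the ratio was not tested. In KO mice of 10 weeks mmu-miR-9-5p was at 564, 633 and 602 CPM, and in KO-TRAMP mice of that age at 138, 645 and 182 CPM. In WT-TRAMP mice of 30 weeks it was at 922, 87.9 and 470 CPM in libraries 10, 11 and 12, and in KO-TRAMP mice at 84.5, 895 and 651 CPM in libraries 16, 17 and 18. Single libraries of 1 group thus differed by 10.5 times and 10.6 times. Over the 6 comparisons of TRAMP within a line, the differences of mmu-miR-9-5p ran from -1.24 to 1.08 ± 0.83 and those of mmu-miR-9-3p from -1.75 to 0.44 ± 0.80, and none was called by limma.

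mmu-miR-124-3p, the most neuron-restricted member, was also the scarcest. Without TRAMP it was at 20.4, 3.04 and 1.81 CPM in WT, 9.10, 12.4 and 12.8 CPM in KO and 5.94, 6.10 and 10.6 CPM in A537T mice of 10 weeks. With TRAMP at that age it was at 3.30, 2.80 and 10.2 CPM in WT, 0.128, 9.70 and 0.313 CPM in KO and 3.46, 3.64 and 7.30 CPM in A537T mice. The lowest of these values rest on 1 and 2 reads. In KO mice of 10 weeks the limma difference with TRAMP was -2.30 ± 0.96 (adjusted p = 0.0552).

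At 30 weeks, mmu-miR-124-3p was low in all 3 KO-TRAMP libraries, those high in miR-9 included, and high in 2 of the 3 WT-TRAMP libraries. In WT-TRAMP mice it was at 26.8, 0.137 and 10.97 CPM in libraries 10, 11 and 12, from 479, 2 and 179 reads. In KO-TRAMP mice it was at 0.355, 0.487 and 0.512 CPM in libraries 16, 17 and 18, from 4, 6 and 8 reads. KO mice of 30 weeks without TRAMP were also low, at 1.76, 0.274 and 1.32 CPM, from 26, 4 and 19 reads. WT mice of that age without TRAMP had 0.469, 19.1 and 14.2 CPM, and A537T mice 6.77, 1.44 and 4.25 CPM. A537T-TRAMP mice had 1.88, 5.72 and 0.797 CPM. Low levels were thus not particular to KO-TRAMP mice, nor high levels to WT-TRAMP mice. The highest value of all 36 libraries was that of library 10, with a Wilson 95% interval of 24.5 to 29.3 CPM that covers counting error only. Library 11 lay below the KO-TRAMP range and libraries 10 and 12 far above it, so the groups overlapped. The ratio of mmu-miR-9-5p to mmu-miR-124-3p was 34.4 and 42.9 in libraries 10 and 12 but 1838 and 1271 in libraries 17 and 18, where mmu-miR-9-5p was of like height. The limma difference of KO-TRAMP from WT-TRAMP was -2.32 ± 0.96 (adjusted p = 0.158), while on the recovered reads edgeR gave -4.93 (adjusted p = 0.0209) and DESeq2 -4.86 (adjusted p = 0.00101). Without library 11, limma gave -3.65 (adjusted p = 0.0372).

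The 4 libraries high in miR-9 among the WT-TRAMP and KO-TRAMP libraries of 30 weeks shared some companions and differed in others. The following miRNAs were chosen after their values were seen. mmu-miR-153-3p, a brain-enriched miRNA, was high in all 4, at 10.4, 6.13, 11.9 and 8.84 CPM in libraries 10, 12, 17 and 18 against 0.479 and 0.444 CPM in libraries 11 and 16. mmu-miR-218-5p, known from motor neurons, was at 559, 583 and 570 CPM in libraries 10 to 12 and at 569, 399 and 522 CPM in libraries 16 to 18, and so did not set them apart. mmu-miR-375-3p, which is abundant in endocrine and many epithelial cells, was at 622, 10627 and 8443 CPM in libraries 16, 17 and 18 and at 3070, 669 and 1788 CPM in libraries 10, 11 and 12. mmu-miR-129-5p, also brain-enriched, was at 1.24, 167 and 131 CPM in libraries 16 to 18 and at 16.3, 3.08 and 9.44 CPM in libraries 10 to 12. mmu-miR-137-3p, known from neurons, was at 0.533, 1.46 and 1.92 CPM in libraries 16 to 18 and at 12.0, 0.479 and 4.72 CPM in libraries 10 to 12. Libraries 17 and 18 were thus the highest of these 6 in miR-375 and miR-129, and libraries 10 and 12 the highest in miR-124 and miR-137. High miR-129 and miR-137 were not particular to TRAMP libraries. In WT libraries 20 and 21 (30 weeks) and 28 (10 weeks) without TRAMP, mmu-miR-129-5p was at 112, 92.5 and 169 CPM. mmu-miR-137-3p was there at 27.02, 16.49 and 25.19 CPM. Library 19 (WT, 30 weeks) was low in both, at 8.39 and 0.763 CPM. In these 4 WT libraries mmu-miR-375-3p was at 1628 to 2625 CPM and mmu-miR-153-3p at 0.176 to 1.99 CPM.

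Of the opposite arms of the miR-7 hairpins, only that of Mir7-1 was well covered. mmu-miR-7a-1-3p, from Mir7-1 in the Hnrnpk intron, was read in all 36 libraries at 14.7 to 42.5 CPM, and mmu-miR-7a-5p exceeded it by 61.7 to 247 times. mmu-miR-7a-2-3p, from Mir7-2, had 15, 9, 15 and 10 reads in libraries 10, 12, 17 and 18 and 0 or 1 read in each of the other 32. These are the libraries of the preceding paragraphs, and their levels were 0.839, 0.552, 1.22 and 0.640 CPM. mmu-miR-7b-3p, from Mir7b, had 4 and 5 reads in libraries 17 and 18 and 0 or 1 read in each of the other 34. mmu-miR-124-5p had at most 41 reads, in library 10 (2.29 CPM), and 0, 0 and 1 read in libraries 16, 17 and 18.

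The comparisons of mutant with control, for which the tables were deposited, called none of the 40 pairs of a member and a comparison by limma. At an unadjusted limma p under 0.05 there were 4, and edgeR and DESeq2 called 2 each. In each comparison, 26 to 104 of the 514 miRNAs tested had an unadjusted limma p under 0.05. Of all miRNAs, limma called 3.89% for KO against WT and 0.195% for A537T against WT at 10 weeks, 0.584% and 0% at 30 weeks, 0% and 0% with TRAMP at 10 weeks, and 6.23% and 0% with TRAMP at 30 weeks. KO and A537T shared their controls in each of these. The share of all miRNAs that edgeR and DESeq2 called in these comparisons is not given here. The pairs called by edgeR and DESeq2 were mmu-miR-124-3p in KO-TRAMP mice of 30 weeks, given above, and mmu-miR-7b-5p in KO mice of 30 weeks. For the latter, with 17.1, 9.81 and 19.8 CPM in KO and 18.7, 636 and 418 CPM in WT mice, limma gave -3.45 ± 1.18 (adjusted p = 0.109), edgeR -4.19 (adjusted p = 0.0215) and DESeq2 -4.07 (adjusted p = 0.00194). Library 19 of the WT mice lay inside the KO range, and without it limma gave -5.02 (adjusted p = 0.00271).

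The miRNAs whose levels were most like those of the members over the 36 libraries, by Spearman's rho of log2(CPM + 1), were mostly one another or brain-enriched miRNAs. mmu-miR-7b-5p was most like mmu-miR-129-5p (0.94), mmu-miR-9-5p (0.92) and mmu-miR-9-3p (0.92), and mmu-miR-9-5p most like mmu-miR-384-5p (0.96), mmu-miR-384-3p (0.95) and mmu-miR-9-3p (0.93). mmu-miR-9-3p was most like mmu-miR-9-5p (0.93), mmu-miR-7b-5p (0.92) and mmu-miR-138-5p (0.91), and mmu-miR-124-3p most like mmu-miR-137-3p (0.92), mmu-miR-9-3p (0.86) and mmu-miR-9-5p (0.81). mmu-miR-7a-5p had other neighbours, mmu-miR-421-3p (0.75), mmu-miR-92a-1-5p (0.71) and mmu-miR-425-5p (0.71), at lower rho.

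A list of 17 other neuron-enriched miRNAs, 13 of them tested, was read beside the members. With TRAMP at 10 weeks, where 65.4% of all miRNAs were called, 0 rose and 3 fell by limma: mmu-miR-129-2-3p at -2.40 ± 0.48 (adjusted p = 0.000107), mmu-miR-138-5p, known from dendrites, at -1.83 ± 0.70 (adjusted p = 0.0229) and mmu-miR-212-3p at -0.59 ± 0.18 (adjusted p = 0.00489). The median of the list was -0.57, against -0.28 over all miRNAs tested. At 30 weeks, where 45.1% of all miRNAs were called, 5 rose and 2 fell. The rises included mmu-miR-153-3p, 1.35 ± 0.35 (limma adjusted p = 0.00241), and mmu-miR-132-3p and mmu-miR-212-5p of the activity-dependent miR-132/212 cluster, 1.33 ± 0.16 and 1.10 ± 0.20 (limma adjusted p = 9.2e-08 and 6.86e-05). The falls were mmu-miR-129-2-3p, -1.55 ± 0.48 (limma adjusted p = 0.0106), and mmu-miR-219a-2-3p of oligodendrocytes, -0.73 ± 0.26 (limma adjusted p = 0.0222), and the median of the list was 0.41, against 0.07 over all. Leaving out libraries 17 and 18 leaves 1 KO-TRAMP library of 30 weeks, so only effect sizes are given for it. The limma differences were then 1.25 for mmu-miR-132-3p, 0.71 for mmu-miR-212-5p and 0.69 for mmu-miR-153-3p, the last against 1.35 with all libraries. They were -1.88 for mmu-miR-129-2-3p, -0.74 for mmu-miR-219a-2-3p and -1.81 for mmu-miR-129-5p, the last not called with all libraries. The median of the list was then 0.12, against 0.002 over all. Leukocyte miRNAs also differed with TRAMP at this age, at 0.0731% to 0.170% of reads with TRAMP and 0.0234% to 0.0634% without, and their part in these rises was not tested. Without the WT libraries at 10 weeks, where 58.2% of all miRNAs were called, 1 of the list rose, mmu-miR-128-3p (1.01, limma adjusted p = 0.0431), and 3 fell.

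A list of 5 miRNAs of endocrine cells and sensory epithelium, 4 of them tested, had 3 rises and 0 falls with TRAMP at 10 weeks, beside the 65.4% of all miRNAs called. The rises were of the miR-183 cluster: mmu-miR-183-5p by 0.79 ± 0.13, mmu-miR-96-5p by 0.49 ± 0.12 and mmu-miR-182-5p by 0.29 ± 0.12 (limma adjusted p = 7.57e-06, 0.000924 and 0.0284). Without the WT libraries, with 58.2% of all miRNAs called, 2 rose, and mmu-miR-182-5p (0.21, limma adjusted p = 0.209) was not called. With TRAMP at 30 weeks, where 45.1% of all miRNAs were called, 1 rose, mmu-miR-96-5p, by 0.41 ± 0.12 (limma adjusted p = 0.00593). In mice without TRAMP, limma also called miR-183-5p, miR-96-5p and miR-182-5p as rises with age, by 0.73, 0.35 and 0.43. In that comparison 33.5% of all miRNAs were called. Of 6 epithelial miRNAs, 5 rose and 1 fell with TRAMP at 10 weeks. Their median was 0.63, against 0.39 for this list, and the part of epithelium was not tested. mmu-miR-375-3p, the remaining one of the list, differed with TRAMP by -0.61 ± 0.41 at 10 weeks and -0.36 ± 0.41 at 30 weeks (limma adjusted p = 0.195 and 0.513). Without libraries 17 and 18, where it was at 10627 and 8443 CPM, the limma difference at 30 weeks was -1.23. These libraries were left out after the values were seen, and leaving out such high values lowers the TRAMP side. Only the effect size is therefore given.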

How the data were processed

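Small RNA of ventral and lateral prostate lobes was sequenced in 36 libraries of 12 groups (Illumina NovaSeq, TruSeq small RNA). The authors merged read pairs and removed adapters with BBMerge, counted miRNAs with mirDeep2 against GRCm38 and miRBase, and summed miRNAs of identical sequence. The authors deposited 8 tables of normalised counts, a signal in which each library's counts were divided by its DESeq2 size factor, for 6 libraries each. Tables of the authors' own fold changes and s-values and lists that name the merged miRNAs were left out, as they hold no measurement.

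A column found in both the KO and the mutant table of 1 age and background was taken as the shared control, the remaining columns as the line the table is named for, with mutant read as A537T. Elac2 messenger RNA is not in these files, so the groups could not be checked. Columns matching no group numbered 0. Each column was divided by its sum to give CPM. Whole reads, within 0.01 read, were recovered for 100% of values, and the 12 control libraries had identical reads in both of their tables.

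limma (3.58.1, R 4.3.3) with a variance trend was run on log2(CPM + 1) for the 514 miRNAs with a mean of at least 1 CPM, over 12 group means and 36 libraries. The tests were two-sided with Benjamini-Hochberg adjustment within a contrast and a threshold of 0.05. A fold on this scale understates the change of low miRNAs. edgeR (4.0.16) and DESeq2 (1.42.0) on the recovered reads, other scalings, pseudocounts and filters, and leaving out each library were alternatives, and the code was tested on simulated data. Depth was 655455 to 21870210 reads, and intervals cover counting error only.

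The 5 members and the lists were chosen with earlier results of these data known. Named beside them were the opposite arms of their hairpins, for each member the 3 tested miRNAs with the highest Spearman's rho, and up to 3 listed miRNAs in each direction that passed in the TRAMP contrasts over the 3 lines. Sequences came from RefSeq and gene positions from GENCODE, both GRCm38.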

Additional observations from a re-analysis of the deposited data

Results flagged for a closer look

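In 3 results an effect differed between groups by a test of the difference itself, an interaction contrast in limma. The TRAMP difference of mmu-miR-7a-5p at 30 weeks was 1.37 log2 units larger in KO than in WT mice (adjusted p = 0.0286). The TRAMP difference of mmu-miR-7a-5p in KO mice was 1.15 log2 units larger at 30 than at 10 weeks (limma adjusted p = 0.0264). The TRAMP difference of mmu-miR-7b-5p in KO mice was 6.08 log2 units larger at 30 than at 10 weeks (limma adjusted p = 0.0108). The contrasts between ages were added after the values were seen. The second was 0.45 to 0.66 and not called with TMM, DESeq2 size factors, edgeR or DESeq2. Without libraries 17 and 18 limma gave 1.11, 0.88 and 3.21, and none was called.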

How the results depend on the processing

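No paired analysis was possible because the columns of the tables carry no replicate number of the labels. The call of mmu-miR-7a-5p with TRAMP over the 3 lines held at both ages in all planned settings and with each library left out. The fall of mmu-miR-7b-5p with age without TRAMP held likewise. Leaving out the WT libraries at 10 weeks or libraries 17 and 18, and the contrasts of ages within a line, were chosen after seeing the data. The cause of the changes below was not tested, except where fewer miRNAs or libraries were used.

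With TRAMP at 10 weeks over the lines, leaving out WT gave 0.26 for mmu-miR-7a-5p (no longer called), and -1.97 for mmu-miR-7b-5p and -1.39 for mmu-miR-9-3p (both now called), and mmu-miR-7b-5p at -1.23 was also called when only the groups compared were fitted. Leaving out 1 library gave -1.63 to -0.93 for mmu-miR-7b-5p, -1.08 to -0.52 for mmu-miR-9-3p and -1.35 to -0.71 for mmu-miR-124-3p, all called without library 8, and mmu-miR-9-3p also without library 30. Of all miRNAs, limma called 309 to 350 with 1 library left out. At 30 weeks the sign turned for mmu-miR-9-5p with edgeR (0.054) and DESeq2 (0.058), and for mmu-miR-7b-5p without libraries 17 and 18 (-0.68). Ranges with 1 library left out were -0.25 to 0.75 for mmu-miR-7b-5p, -0.35 to 0.32 for mmu-miR-9-5p and -0.75 to 0.091 for mmu-miR-124-3p. The uncalled change of the TRAMP difference with age turned for mmu-miR-7a-5p with TMM (-0.12), DESeq2 size factors (-0.23), edgeR (-0.056) and DESeq2 (-0.21), and without libraries 17 and 18 for mmu-miR-9-5p (-0.22) and mmu-miR-9-3p (-0.084).

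In KO mice with TRAMP, mmu-miR-7b-5p lost its call at 10 weeks with no filter (-3.09), edgeR (-2.04) and DESeq2 (-1.94). At 30 weeks it lost its call with pseudocounts of 0.1 (3.05) and 10 (2.56), no filter, a mean of at least 10 CPM, only the groups compared or no variance trend (each 2.99), TMM (2.74), DESeq2 size factors (2.70) and without libraries 17 and 18 (0.12). With 1 library left out these were -4.29 to -2.44, called only without library 8, and 2.07 to 4.42, called only without library 16. mmu-miR-7a-5p in KO at 30 weeks was not called without libraries 17 and 18 (1.10). Its excess over WT was not called with no filter or only the groups compared (each 1.37) or without libraries 17 and 18 (1.11), and ran from 1.17 to 1.64 with 1 library left out. Its KO change between ages was not called with no filter (1.15), TMM (0.65), DESeq2 size factors (0.45), edgeR (0.66), DESeq2 (0.48) or without libraries 17 and 18 (0.88), and ran from 1.01 to 1.28. That of mmu-miR-7b-5p was 3.21 without libraries 17 and 18, not called.

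Calls appeared for mmu-miR-7a-5p with TRAMP at 10 weeks in KO with DESeq2 size factors (0.61) and DESeq2 (0.59), in A537T with TMM (0.56), DESeq2 size factors (0.57) and DESeq2 (0.56), and for its WT change between ages with DESeq2 (-0.89), which ran from -1.29 to -0.69 and was called without library 19 or 28. In WT at 10 weeks it ran from 0.68 (without library 30, not called) to 1.28. edgeR and DESeq2 called mmu-miR-7b-5p for the KO excess over WT at 30 weeks (5.36 and 5.37, 3.47 to 6.06 with 1 library left out, called by limma without library 16 or 19) and for KO against WT at 30 weeks (-4.19 and -4.07, -5.02 to -2.51), and mmu-miR-124-3p for KO-TRAMP against WT-TRAMP at 30 weeks (-4.93 and -4.86, -3.65 to -1.35).

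With a mean of at least 10 CPM, where mmu-miR-124-3p has no value, 212 miRNAs were called with TRAMP at 10 weeks and 138 at 30 weeks, against 336 and 232. At 30 weeks 148 rose and 84 fell, against 118 and 116 with DESeq2 size factors, and at 10 weeks 131 rose and 205 fell, against 156 and 169. Depth limited mmu-miR-124-3p most, with 1 to 479 reads per library.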
